A study of Mus musculus with 2 samples.

Results

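The core genes of the transforming growth factor beta (TGF-beta) pathway were followed in CD4 T cells activated with antigen-presenting cells (APC) that carried an OX40 ligand transgene or were wild type. The genes were Tgfb1, Tgfb3, Tgfbr1, Tgfbr2, Smad2, Smad3, Smad4, Smad7, Ski and Skil, chosen by name, with all their probe sets that the platform annotation pairs with 1 gene symbol. They made up 10 of 17097 genes and 20 of 45141 probe sets. Naive CD4 T cells without Foxp3 came, by sorting, from 6-week-old C57/Bl6 mice with a Foxp3-eGFP reporter, cultured for 48 hours with soluble anti-CD3 antibody and APC, and sorted again as living CD4 T cells. In the OX40L-Tg APC group the APC were CD3-negative splenocytes of OX40L-Tg mice, and in the Wt APC group they were CD3-negative splenocytes of Wt B6 mice. Both kinds of APC had received mitomycin C (50 ug/ml), and the T cells of both groups carried the same reporter. Neither the promoter of the transgene nor the number of mice is given in the sources used here, and the labels name no TGF-beta added to the cultures. RNA was measured on Affymetrix HT_MG-430 PM arrays, with 1 array for each kind of APC, so no difference below has a replicate, an error or a test.

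TGF-beta is secreted in a latent form, bound to its own propeptide, and is released at the cell surface or in the matrix. The active ligand binds the type II receptor, which recruits and phosphorylates the type I receptor, and this kinase phosphorylates SMAD2 and SMAD3. These join SMAD4 and regulate genes in the nucleus, while SMAD7, SKI and SnoN hold the pathway back. In CD4 T cells the pathway is known for restraining Th1 and Th2 differentiation and for its part in the making of regulatory, Th17 and Th9 cells.

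The transcripts of the core pathway read much the same with both kinds of APC. Of the 10 genes, 0 differed by at least 1.5-fold, against 7.21% of the 10541 genes above the floor, which was each array's median intensity. At the level of probe sets, 0 of 20 differed by at least 1.5-fold, against 4.06% of the 28898 probe sets with 1 gene symbol. With so few genes, a count of 0 lies near what that share would give, so it does not set these genes apart. Taking the brightest probe set of each gene, 5 genes were higher and 5 lower with OX40L-Tg APC, with a median log2 difference of -0.01, where the median of all genes above the floor was 0.02. Their differences ran from -0.30 for Tgfbr2 to 0.17 for Ski, and 77.6% of all genes above the floor had a difference no larger in size than that of Tgfbr2.

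**Figure D1:**
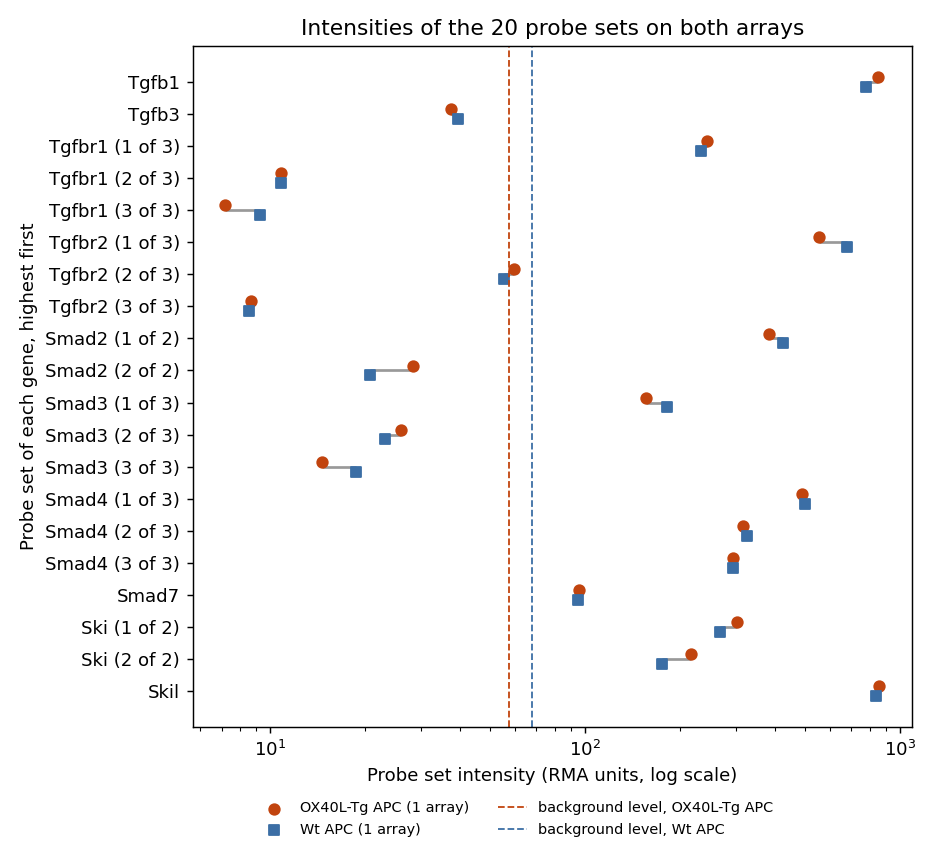
Intensity of each of the 20 probe sets (RMA units, log scale) in CD4 T cells activated with OX40L-Tg APC (circles, 1 array) and with Wt APC (squares, 1 array). The dashed lines are the background levels of 57.4 and 67.9 units on the OX40L-Tg APC and Wt APC arrays, and the points of a probe set lie close together for all 10 genes.

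A background level was set on each array from 73 genes listed as restricted to other organs, as the 95th percentile of their intensities. Among them, Tg read 4491 units with OX40L-Tg APC and 3302 units with Wt APC, Csn2 185 and 140 units, and Tff1 100 and 105 units. These genes raised the background level. It was 57.4 units on the OX40L-Tg APC array and 67.9 units on the Wt APC array. Of the 20 probe sets, 13 reached it on at least 1 array and 7 did not, and 9 of the 10 genes had a probe set that did. The exception was Tgfb3. Intensities of different probe sets depend on their probes, so levels are compared only within a probe set.

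Among the ligands, Tgfb1, the form that lymphocytes chiefly make, read 852 units with OX40L-Tg APC and 781 units with Wt APC. This is a log2 difference of 0.13, or 1.09-fold, and 53.8% of genes above the floor had a larger one. Tgfb3, an isoform better known from epithelia and mesenchyme, read 37.4 units with OX40L-Tg APC and 39.3 units with Wt APC. Both values lay below background, so the arrays do not show that its transcript was present. Tgfb2, the remaining mammalian isoform, read 7.76 units with OX40L-Tg APC and 6.94 units with Wt APC, also below background. Tgfb1 was thus the one ligand of the 3 with signal above background on these arrays.

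The receptors differed in opposite directions by small amounts. Tgfbr1, the type I receptor kinase, read 243 units with OX40L-Tg APC and 234 units with Wt APC, a log2 difference of 0.05. Its other 2 probe sets were below background on both arrays, at 7.19 and 10.8 units with OX40L-Tg APC against 9.24 and 10.8 units with Wt APC. Tgfbr2, the ligand-binding type II receptor, read 552 units with OX40L-Tg APC and 679 units with Wt APC. Its log2 difference of -0.30, which is 1.23-fold lower, was the largest in size of the 10 genes. A second probe set of Tgfbr2 near background had the opposite sign, at 59.6 units with OX40L-Tg APC and 55.1 units with Wt APC, a difference of 0.11. The third read 8.66 units with OX40L-Tg APC and 8.58 units with Wt APC. The lower Tgfbr2 reading therefore rests on 1 probe set, and the median over its 3 probe sets was 0.01.

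The promoter windows of Tgfbr2 and Tgfb1 are printed here because these genes were the one with the largest difference of the 10 and the one ligand above background. RefSeq windows of 300 bases, 250 before to 50 after the start of the gene in mouse assembly GRCm38.p6, were found for 5 of the 10 genes, with 6 windows in all. Capitals mark the SMAD-binding core CAGAC, on either strand.
Tgfbr2 (chr9:116175314-116175613, minus strand): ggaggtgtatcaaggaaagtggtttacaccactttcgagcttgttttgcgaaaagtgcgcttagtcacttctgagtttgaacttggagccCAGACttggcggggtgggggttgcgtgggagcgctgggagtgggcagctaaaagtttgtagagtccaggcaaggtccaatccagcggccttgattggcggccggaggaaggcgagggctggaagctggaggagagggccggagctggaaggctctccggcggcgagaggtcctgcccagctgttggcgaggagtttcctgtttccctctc
Tgfb1 (chr7:25686752-25687051, plus strand): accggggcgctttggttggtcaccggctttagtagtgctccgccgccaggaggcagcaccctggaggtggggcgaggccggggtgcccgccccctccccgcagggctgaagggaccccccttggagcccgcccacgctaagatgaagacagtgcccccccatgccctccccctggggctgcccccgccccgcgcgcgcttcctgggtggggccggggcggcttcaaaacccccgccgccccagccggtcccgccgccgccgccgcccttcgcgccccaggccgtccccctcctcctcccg
The Tgfbr2 window held CAGAC 1 time, as did 1 of the 2 Tgfbr1 windows, and the windows of Tgfb1, Ski and Smad3 held none. CAGAC occurred in 49.6% of all 32851 windows, so a match is common. The palindrome GTCTAGAC (0.213% of windows), the AP-1 motif TGANTCA (7.81%) and an NF-kB motif (1.47%), each searched on both strands, occurred in 0 of the 6 windows. The window of Tgfb1 was 77% G and C and that of Tgfbr2 59%, where the median of all windows was 52.7%.

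The receptor-activated SMADs were both slightly lower in their brightest probe set. Smad2, a direct substrate of the type I receptor, read 382 units with OX40L-Tg APC and 424 units with Wt APC, a log2 difference of -0.15. Its second probe set, below background, had the opposite sign, at 28.4 units with OX40L-Tg APC and 20.7 units with Wt APC, and the median over both was 0.15. Smad3, the other substrate and the one that binds DNA directly, read 155 units with OX40L-Tg APC and 182 units with Wt APC, a difference of -0.23 or 1.17-fold lower. Its 2 dimmer probe sets, both below background, gave 0.17 and -0.36. Of all 4195 genes with at least 2 probe sets above the floor, 63.5% had one sign in all of them, so probe sets of a gene often disagreed in direction.

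Smad4, the shared partner of the receptor-activated SMADs, read nearly alike on both arrays in all its probe sets. Its 3 probe sets read 489, 317 and 294 units with OX40L-Tg APC, against 498, 327 and 294 units with Wt APC. All 3 were above background, and their log2 differences ran from -0.04 to 0.00. The typical SD of the differences among probe sets of a gene above background was 0.07 over 2630 genes, so the Smad4 differences were smaller than the usual scatter between probe sets. That scatter is technical and says nothing of the spread between cultures.

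The inhibitors were level or slightly higher with OX40L-Tg APC. Smad7, which blocks the type I receptor and is itself induced by TGF-beta, read 95.6 units with OX40L-Tg APC and 95.1 units with Wt APC. Its log2 difference of 0.01 was exceeded in size by 97.0% of genes above the floor. Skil, which encodes the corepressor SnoN and is likewise a known target of the pathway, read 856 units with OX40L-Tg APC and 836 units with Wt APC, a difference of 0.03. Ski, the related corepressor of SMAD complexes, had 302 and 216 units in its 2 probe sets with OX40L-Tg APC, against 269 and 175 units with Wt APC. Both Ski probe sets were above background and higher with OX40L-Tg APC, by 0.17 and 0.31. Of the 3 genes with at least 2 probe sets above background, Ski and Smad4 had one sign throughout and Tgfbr2 did not, against 71.0% of 2630 genes in all.

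**Figure D2:**
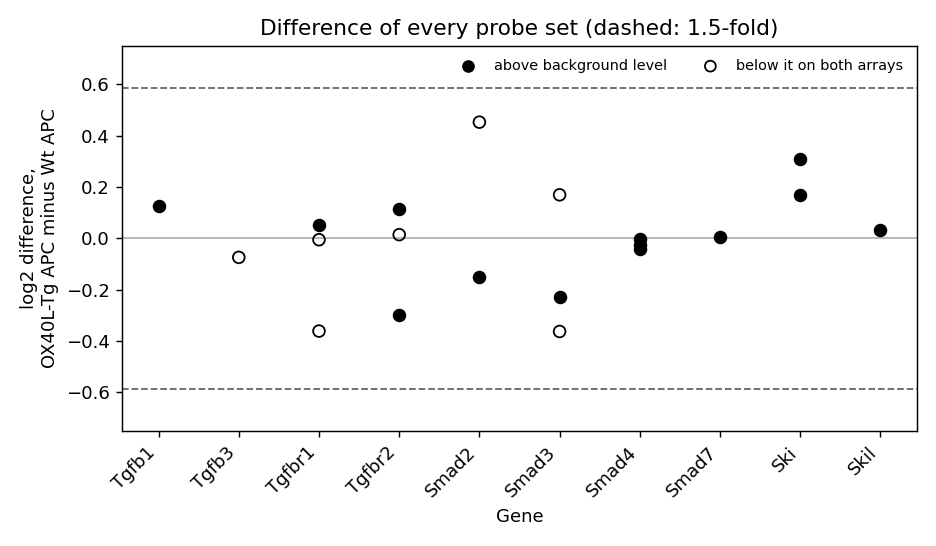
Log2 difference, OX40L-Tg APC minus Wt APC, of every probe set of the 10 genes; filled points reached the background level on at least 1 array and open points did not. All points lie inside the dashed lines at 1.5-fold, and the filled ones run from -0.30 (Tgfbr2) to 0.31 (Ski).

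Transcripts that mark cell types differed between the arrays. All 11 T cell markers with a value were above background. They had a median log2 difference of -0.27, with 10 of 11 lower and summed intensities of 23226 units with OX40L-Tg APC and 27214 units with Wt APC. The CD8 T cell gene Cd8b1 was higher, at 239 units with OX40L-Tg APC and 191 units with Wt APC, a difference of 0.32. Cd8a, at 0.17, was below background on both arrays. B cell markers were higher in 8 of 8 above the floor, with a median of 0.53 and sums of 1859 units with OX40L-Tg APC and 1214 units with Wt APC. Of all 10541 genes above the floor, 5687 were higher. Ebf1, 1 of the 8, was below background on both arrays, and the 7 above background had a median of 0.44. Pax5, Cr2 and Ighm were below the floor. MHC class II genes were higher in 6 of 6 above the floor, with sums of 3596 units with OX40L-Tg APC and 2688 units with Wt APC. Of these, H2-DMb1 was below background with Wt APC, at 35.8 units. Ciita, the other gene with a value, was lower and below the floor, at 8.51 units with OX40L-Tg APC and 11.2 units with Wt APC. Of 6 dendritic cell markers above the floor, 5 were higher, with sums of 1583 units with OX40L-Tg APC and 755 units with Wt APC. The largest difference among them was 2.59 for Batf3, an AP-1 factor that T cells also express. Of the 6, Batf3, Ccl17 and Ccl22 were above background on at least 1 array. Flt3, Zbtb46 and Itgax were below it on both arrays, and Flt3 was the lower one. The erythroid gene Hba-a1, an alpha globin, read 207 units with OX40L-Tg APC and 1161 units with Wt APC, while the other 4 erythroid markers with a value were below background. In bulk RNA, fewer cells of a type and less RNA per cell cannot be told apart. The 5 lower core genes, Tgfbr2, Smad3, Smad2, Tgfb3 and Smad4, lay on the same side as the T cell markers and the 5 higher ones on the other. However, Tgfbr2, Smad2 and Tgfbr1 changed sides with the median over probe sets, at 0.01, 0.15 and -0.005. Smad7 changed sides with median centring and with a lowess, at -0.01 in each. The part of cell composition in these values was not tested. Pf4 and Ppbp, which define platelets, a rich source of TGF-beta, read at most 7.85 units on either array. Of the 7 platelet genes with a value, Itgb3, an integrin chain of other cells too, was the one above background, at 330 units with OX40L-Tg APC and 423 units with Wt APC. Of 5 regulatory T cell markers above the floor, 3 were higher and 2 lower, with a median of 0.19 and sums of 9992 units with OX40L-Tg APC and 8149 units with Wt APC. They included Il2ra, an activation gene too, at 0.89, Tnfrsf18 at 0.19 and Ctla4 at -0.34. Ikzf4 was at least 1.48-fold higher against the background level, and Ikzf2, at -0.77, was below background on both arrays. Foxp3, which defines regulatory T cells, was below background at 8.50 units with OX40L-Tg APC and 8.25 units with Wt APC. The extraction protocol speaks of adipose tissue, and all 7 adipocyte markers with a value were below background, at 20.4 units or less.

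**Figure D3:**
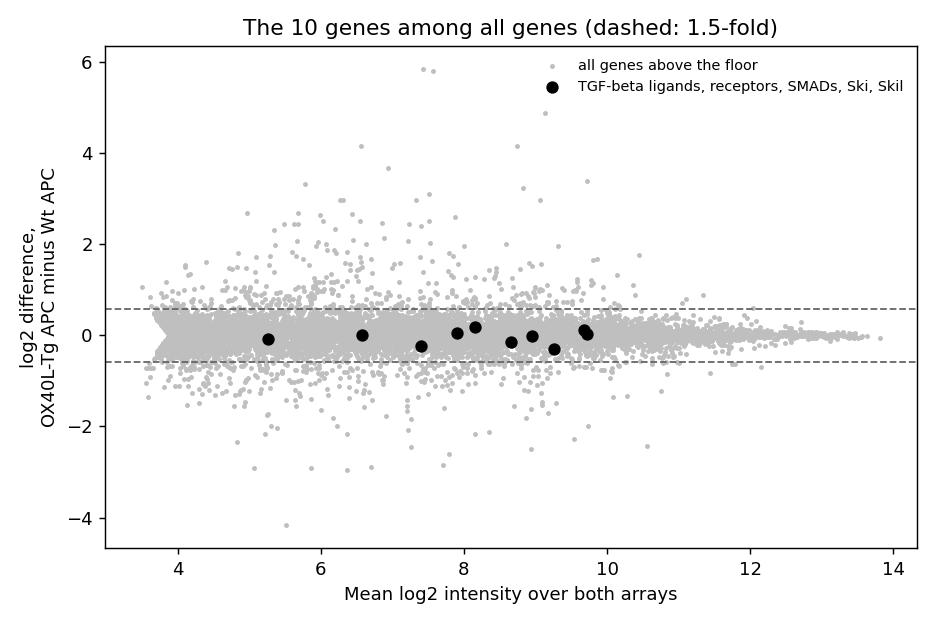
Log2 difference, OX40L-Tg APC minus Wt APC, against mean log2 intensity for the 10541 genes above the floor (grey), with the 10 TGF-beta pathway genes in black. The black points lie in the dense band inside the dashed 1.5-fold lines, whereas single genes elsewhere reach differences from -4.17 to 5.84.

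The genes around the core were examined through 7 lists of other pathway components. Of 102 such genes, 67 reached the floor, 3 passed 1.5-fold upward and 1 downward with OX40L-Tg APC, and the median log2 difference was 0.02. Among all genes above the floor, 3.85% passed 1.5-fold upward and 3.36% downward with OX40L-Tg APC. The 4 genes past 1.5-fold were Furin, Emilin1, Atf3 and Acvrl1.

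Genes that store and activate the ligand included 2 of these 4. Furin, the protease that cuts the TGF-beta precursor, read 242 units with OX40L-Tg APC and 140 units with Wt APC, 1.73-fold higher. Emilin1, a matrix protein that limits this cleavage, read 63.4 units with OX40L-Tg APC and 35.1 units with Wt APC. The Wt APC value was below background and the other close to it, so no fold is given. Itgav, the integrin alpha chain that binds latent TGF-beta, read 706 units with OX40L-Tg APC and 525 units with Wt APC, a log2 difference of 0.43, and 0.63 in its other probe set above background. Nrros, which tethers latent TGF-beta on myeloid cells, read 508 units with OX40L-Tg APC and 449 units with Wt APC. Of the 16 genes, 7 were above the floor, of which 5 were higher, with a median of 0.30 against 0.02 for all genes above the floor. The middle gene was Ltbp4, a latent TGF-beta binding protein, which was below background on both arrays. The median was 0.18 with the median over probe sets and 0.61 for the 4 genes above background. B cell and MHC class II genes above the floor were also higher on the same array, and their part was not tested. Lrrc32, the tether of latent TGF-beta on regulatory T cells, was not analysed here.

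Other receptors of the family held the largest negative difference of the 7 component lists. Acvrl1, the type I receptor ALK1 known from endothelium, read 52.3 units with OX40L-Tg APC and 112 units with Wt APC. Against the background level it was at least 1.96-fold lower, and its second probe set, below background, had a difference of 0.07. The endothelial marker Pecam1, which T cells also express, read 36.4 units with OX40L-Tg APC and 114 units with Wt APC, while Cdh5, which defines endothelium, read 10.7 units with OX40L-Tg APC and 9.96 units with Wt APC. Tgfbr3, the coreceptor betaglycan, read 371 units with OX40L-Tg APC and 378 units with Wt APC. Acvr1b, an activin receptor, and Bmpr2, the BMP type II receptor, differed by -0.21 and -0.20. None of the 12 genes with a value in the list of activin and BMP ligands reached background on either array. That list also holds antagonists and Bmp1, which encodes a protease.

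SMADs of the BMP branch were also close between arrays. Smad1 read 198 units with OX40L-Tg APC and 165 units with Wt APC, and Smad5 read 96.2 units with OX40L-Tg APC and 103 units with Wt APC. Smad6, the inhibitory SMAD of that branch, was below background at 7.13 units with OX40L-Tg APC and 6.42 units with Wt APC. Of 23 regulators of SMADs and receptors above the floor, 0 passed 1.5-fold, and their median was 0.07. Among all genes above the floor 7.21% did, so with so few genes this count does not set the regulators apart. The ubiquitin ligases Smurf2 and Wwp1, which act with SMAD7 on the receptor, differed by 0.10 and 0.43. Smurf1, a related ligase, was below background on both arrays. Ctdsp2, a phosphatase of SMAD linker sites, and Sptbn1, a spectrin that acts as a SMAD adaptor, differed by -0.36 and -0.33.

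SMAD partner factors and the TAK1 branch gave 1 gene past 1.5-fold. Atf3, a stress-induced factor that can act with SMAD3, read 767 units with OX40L-Tg APC and 388 units with Wt APC, 1.98-fold higher. The other 10 partner factors above the floor were within 1.5-fold, among them Runx3 at 0.13 and Crebbp, a coactivator, at -0.33. Map3k7, which encodes TAK1, read 281 units with OX40L-Tg APC and 285 units with Wt APC. All 11 genes of its branch were above background and within 1.5-fold, with Map2k3, a p38 kinase activator, the highest at 0.38. With 7.21% of all genes above the floor past 1.5-fold, the counts of these short lists do not set them apart.

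**Figure D4:**
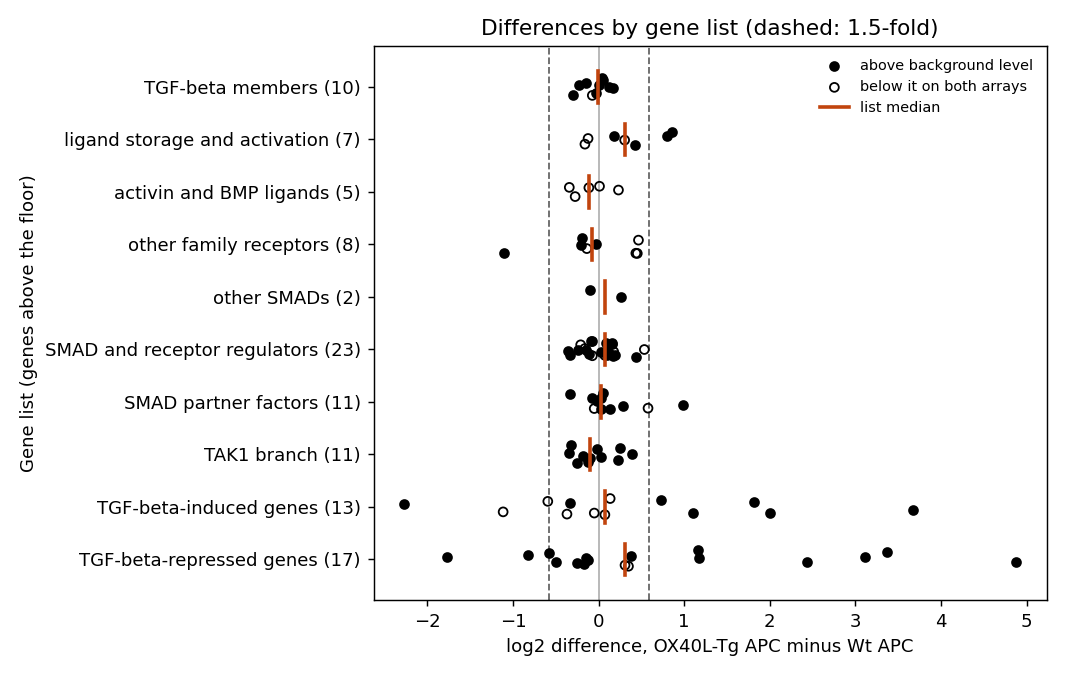
Log2 difference, OX40L-Tg APC minus Wt APC, of the genes above the floor in the core pathway (top row) and in 9 related lists; filled points reached the background level on at least 1 array, and the vertical bars are list medians. The 10 core genes span -0.30 to 0.17, while genes known to respond to TGF-beta in T cells or other cells span -2.27 to 4.87.

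Genes known to respond to TGF-beta spanned a wider range of differences than the core, in both directions. Of 21 genes that TGF-beta can induce, 18 had a value and 13 were above the floor. Of those 13, 5 passed 1.5-fold upward and 3 downward with OX40L-Tg APC, against 3.85% and 3.36% of all genes above the floor, with a median of 0.07. This list was chosen with earlier results of these data known, so its counts and range are description only. Spsb1, an adaptor known to act on the type II receptor, read 199 units with OX40L-Tg APC and 49.8 units with Wt APC, at least 2.93-fold higher against the background level. Its other probe set above background differed by 0.90. Junb, an AP-1 subunit, differed by 0.73, and Cdkn1a, the cell cycle inhibitor p21, by 1.10. The cytokine genes Il9 and Il10 were at least 6.44-fold and 2.27-fold higher against that level, whereas Bcl2l11, encoding the proapoptotic protein Bim, differed by -2.27. Itgae, the integrin chain CD103, was below the floor at 10.3 units with OX40L-Tg APC and 13.8 units with Wt APC. Il17a and Nt5e, the other 2 lower genes, were below background on both arrays. Pmepa1, a feedback inhibitor of the pathway, was not analysed here.

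Of 17 genes that TGF-beta can repress, all above the floor, 6 passed 1.5-fold upward and 2 downward with OX40L-Tg APC, with a median of 0.31. The shares over all genes were again 3.85% and 3.36%, and this list too was chosen with earlier results of these data known. The 6 were Gzma, Il4, Il13, Il5, Il2 and Gata3, genes of cytokines, a granzyme and the Th2 factor, with log2 differences from 1.16 for Gata3 to 4.87 for Gzma. Of these, Il13 and Il5 were below background with Wt APC. The 2 were the T-box gene Eomes at -1.77 and Ifng at -0.83. Stat4, a transducer of IL-12 signals, read 1485 units with OX40L-Tg APC and 2224 units with Wt APC, a difference of -0.58. Fasl, a death ligand, differed by -0.50, Tbx21, which encodes T-bet, by -0.25, and Myc by -0.12. Tnf and Gzmb differed by -0.17 and -0.14, whereas Il12rb2 was higher, at 0.38. Prf1 and Klrg1 were also higher, at 0.35 and 0.31, but below background on both arrays. Keeping only genes above background moved the medians to 1.10 for the induced and -0.12 for the repressed genes, so neither median describes its list well. Many signals other than TGF-beta act on these genes, and the arrays do not measure the phosphorylation of SMADs.

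Genes near the core genes on the chromosomes were read as well. The nearest gene above the floor on each side of every core gene, in the gene order of GRCm38.p6, gave 20 neighbours. Of these, 14 were higher and 6 lower with OX40L-Tg APC, with a median of 0.04. Among all 10541 genes above the floor, 5687 were higher and 4851 lower, with a median of 0.02. Of the 20 neighbours, 1 passed 1.5-fold upward and 0 downward, against 3.85% and 3.36% of all genes above the floor. The upward one was Zmat3, a p53 target and the nearest gene above the floor on one side of Skil. Zmat3 read 184 units with OX40L-Tg APC and 119 units with Wt APC. It was named after its value was seen. Likeness was looked at for Tgfbr2 alone. The 5 genes nearest to it by Euclidean distance of the 2 log2 values were Stambpl1, Ptger4, Skap1, Cul4b and Retreg1, at distances from 0.03 to 0.04. With 2 arrays such likeness is a single pair of readings and describes only these arrays.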

How the data were processed

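The members and lists were chosen with earlier results of these data known. The authors deposited linear intensities per probe set, which RMA had produced according to the submitters' processing notes. Its version and the set of arrays normalized together are not given in the sources used here. RMA compresses low intensities, so differences near background are understated, and equalising arrays hides any change of total RNA per cell. Log2 was taken of the values, which ran from 4.69 to 14686 units.

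Of 45141 probe sets, 28898 had 1 gene symbol in the platform annotation, 551 had several and named no gene, and 15692 were unnamed here. Entrez numbers of 28689 were found in the RefSeq gene table of GRCm38.p6, changing 0 symbols. Each gene was represented by the probe set whose mean log2 value was highest. The floor was 3.88 on the log2 scale on both arrays, and a gene counted as above it if it reached it on at least 1 array. Each difference subtracts the Wt APC value from the OX40L-Tg APC value. A fold against a value below background uses the background level as a bound.

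Named genes were all 10 members, up to 8 genes of each pathway list past 1.5-fold and above background, a fixed set of components, and the 5 genes nearest to Tgfbr2. Other list genes given by value, Nrros, Acvr1b, Bmpr2, Wwp1, Ctdsp2, Sptbn1, Runx3, Crebbp, Map2k3, Stat4, Fasl, Tbx21, Myc, Tgfb2, Ltbp4, Il17a and Nt5e, and the markers Pecam1, Cdh5, Pf4, Ppbp, Itgb3, Batf3, Hba-a1, Il2ra and Ctla4, were named after their values were seen. The same holds for Tnf, Gzmb, Il12rb2, Prf1, Klrg1, Ccl17, Ccl22, Flt3, Zbtb46, Itgax, Tnfrsf18, Ikzf2 and Ikzf4, and for the organ genes Tg, Csn2 and Tff1. It also holds for the markers Ciita, H2-DMb1, Ebf1, Pax5, Cr2, Ighm, Cd8a and Cd8b1. Over all probe sets, Pearson's r between the arrays was 0.993 on the log2 scale. Their number, 1 per group, limits the precision. Calculations used Python 3.11.15, numpy 2.4.6, pandas 2.3.3, statsmodels 0.14.6 and matplotlib 3.10.9, and were tested on simulated data.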

Additional observations from a re-analysis of the deposited data

How the results depend on the processing

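The count of core genes past 1.5-fold was 0 in the main setting and under all 10 alternatives, and the median of the core genes stayed between -0.03 and 0.02. Alternatives were other ways to combine probe sets, leaving out _s_at and _x_at probe sets, median centring, a lowess with span 0.3, a pseudocount of 16, floors at the 75th percentile or none, and the background level in place of the floor. No alternative could leave out a replicate. No paired analysis was possible because there is 1 array per group. The related lists were run only with the median over probe sets, the floor at the 75th percentile, and the background level with and without Tg, Csn2 and Tff1. A log2 difference or median counted as moved when it changed by more than 0.10, the median SD among probe sets of a gene. A count of genes was taken as moved when it changed by more than 1.5-fold, or to or from 0.

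Among the core genes 4 values moved, those of Tgfbr2 and Smad2. The median over probe sets gave 0.01 for Tgfbr2 and 0.15 for Smad2, and the mean of probe sets above the floor gave -0.09 and 0.15. For ligand storage and activation, the median was 0.18 with the median over probe sets, 0.43 with the floor at the 75th percentile (3 genes, 1 past 1.5-fold) and 0.61 above background. For other family receptors it was 0.083 with the median over probe sets, where 0 passed 1.5-fold, as with the floor at the 75th percentile, and -0.20 above background. The SMAD and receptor regulators had -0.048 with the median over probe sets, and other SMADs 0.26 with the floor at the 75th percentile. TGF-beta-induced genes had a median of 1.10 both above background and with the floor at the 75th percentile, and TGF-beta-repressed genes -0.12 and -0.13, so the sign of that list's median depended on the genes kept. A background level without Tg, Csn2 and Tff1, an alternative chosen after seeing the data, was 38.3 units with OX40L-Tg APC and 34.3 units with Wt APC and gave 0.61, -0.20, 1.10 and -0.12 for ligand storage, other receptors, TGF-beta-induced and TGF-beta-repressed genes. With it, Tgfb3 passed background on the Wt APC array. Smurf1 and Flt3, among others, passed it on both arrays, and the regulators of SMADs and receptors above it numbered 21 in place of 17. Signal near background limits Tgfb3 and the dim probe sets of Tgfbr1, Tgfbr2, Smad2 and Smad3.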
